A study of Rattus norvegicus with 9 samples.

Results

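The genes described here encode the core of the spliceosome and the SR proteins: 64 of the 20442 genes in a table of rat bone marrow-derived dendritic cells. They were chosen by symbol alone, as the genes whose names begin with Snrp, Sf3a, Sf3b, U2af, Lsm with a digit, Prpf with a digit or Srsf with a digit, leaving out any name that ends in -ps. The rule uses no measured value. By role they are 11 genes of the Sm ring, 4 of the proteins particular to the U1 and U2 particles, 9 of the SF3 complex, 3 of U2AF, 11 SR proteins, 13 LSm proteins and 13 PRPF proteins.

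The cultures were primary wild-type rat bone marrow cells grown with 10% serum and 20 ng/mL each of GM-CSF and IL-4, and RNA was sequenced from 3 cultures in each of 3 groups. LPS+EVs cultures received lipopolysaccharide (LPS, the bacterial endotoxin sensed through Tlr4) together with extracellular vesicles (EVs) from ASCs. LPS cultures received LPS, and Control cultures carry the treatment label none. The treatment text names 1 µg/mL LPS, 50 ng/mL of an agent it does not name and 24 h. Whether the unnamed agent was the EVs is not known here, nor is the EV dose. If both treated groups received it as something else, its effect and that of LPS against Control cannot be told apart. Replicates are labelled biological without a word on whether animals differed, and p-values here therefore cover the spread among cultures that may share an animal.

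The spliceosome removes introns from pre-mRNA. Its small nuclear ribonucleoproteins (snRNPs) are built around short RNAs: U1 pairs with the 5′ splice site, U2 with the branch site, and the tri-snRNP of U4, U5 and U6 then joins to form the catalytic center. Sm proteins close a ring around U1, U2, U4 and U5 RNA, LSm proteins form a like ring on U6, the SF3 complex and U2AF bring U2 to the branch site and 3′ splice site, PRPF proteins act in the tri-snRNP and in the remodelling around it, and SR proteins bind exons and recruit the machinery to weak sites. Splicing of this kind takes place in every nucleated cell, although single members, such as Snrpn, are known from particular tissues.

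The data are FPKM, a read density per gene length and library size, so levels can be compared between genes. The 9 libraries held 32148519 to 39407116 reads recovered from the FPKM steps, and 9846 to 10821 genes per library reached 1 FPKM. Of the dendritic cell markers, Itgax stood at 29.8 to 52.0 FPKM and Cd74 at 939 FPKM or more, whereas Flt3, Cd209, Cd209a, Clec9a and Xcr1 stayed below 1 FPKM in every library. The library numbered 2 in each group stood apart, with a summed level of the dendritic markers of 8388 to 9958 FPKM, against 1318 to 3616 FPKM in the others. Stromal markers summed to 118 to 163 FPKM in the libraries numbered 2, against 381 to 867 FPKM in the others. Results are therefore also given for the libraries numbered 1 and 3 alone. These are bulk samples, in which fewer cells of a type and less RNA per cell cannot be told apart.

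Members took a smaller share of the reads in both treated groups. They held 0.356% to 0.373% of the assigned reads in LPS+EVs, 0.365% to 0.388% in LPS and 0.533% to 0.565% in Control, and their summed level was 1479 to 1576 FPKM in LPS+EVs, 1505 to 1532 FPKM in LPS and 2339 to 2563 FPKM in Control. Neither treated group overlapped Control in either measure, while the treated groups overlapped each other. By family, the widest gap in mean summed level was that of the Sm ring, at 335 ± 26.0 FPKM in LPS+EVs, 309 ± 24.3 FPKM in LPS and 654 ± 57.7 FPKM in Control (SD, n = 3 each). The SF3 complex stood at 364 ± 8.33 FPKM in LPS+EVs, 350 ± 12.5 FPKM in LPS and 453 ± 18.4 FPKM in Control.

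**Figure D1:**
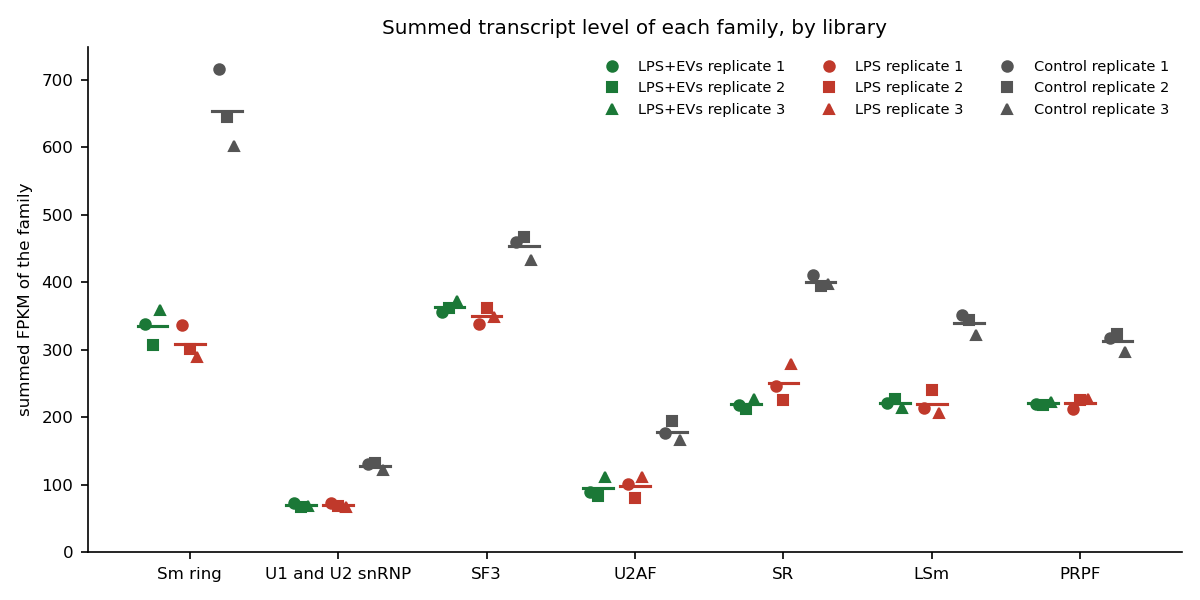
Summed level of each family in FPKM (vertical axis, linear from 0) for the 9 libraries, with 1 symbol per library, colored by group and shaped by replicate number, and a bar at the mean of each group. For all 7 families the 3 Control libraries lie above the 6 treated ones, and the LPS+EVs and LPS libraries lie beside each other.

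Sequences upstream of 4 members are shown. With LPS, Lsm2, Snrpf and Srsf6 had the largest falls among LSm, Sm ring and SR genes, and Prpf39 was the member that rose. Members of other families are not shown, also where they fell further than Srsf6 (-1.44), as Prpf19 did (-1.96). Each line holds the 250 bases before the transcript start listed first in RefSeq (build GRCr8), 5′ to 3′ on the gene's strand, with CCAAT and GGGCGG boxes on either strand in capitals. Lsm2 lies on the minus strand (chr20:3851871-3852120), Snrpf on the minus strand (chr7:30024163-30024412), Srsf6 on the plus strand (chr3:172008822-172009071) and Prpf39 on the plus strand (chr6:88824990-88825239).
Lsm2: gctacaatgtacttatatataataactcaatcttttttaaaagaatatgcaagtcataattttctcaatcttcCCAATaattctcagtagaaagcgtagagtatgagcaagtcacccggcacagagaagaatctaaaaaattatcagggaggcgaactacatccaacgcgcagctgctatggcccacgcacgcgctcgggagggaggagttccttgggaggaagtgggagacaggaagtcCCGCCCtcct
Snrpf: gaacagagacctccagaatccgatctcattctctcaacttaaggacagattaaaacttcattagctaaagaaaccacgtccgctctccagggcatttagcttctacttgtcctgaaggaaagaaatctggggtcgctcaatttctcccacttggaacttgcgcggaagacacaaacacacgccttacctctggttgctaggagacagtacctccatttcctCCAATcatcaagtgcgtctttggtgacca
Srsf6: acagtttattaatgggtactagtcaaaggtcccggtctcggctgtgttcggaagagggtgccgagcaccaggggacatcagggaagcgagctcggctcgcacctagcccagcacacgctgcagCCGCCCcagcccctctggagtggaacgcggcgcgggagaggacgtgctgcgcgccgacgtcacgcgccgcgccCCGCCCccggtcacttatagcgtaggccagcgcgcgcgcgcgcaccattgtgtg
Prpf39: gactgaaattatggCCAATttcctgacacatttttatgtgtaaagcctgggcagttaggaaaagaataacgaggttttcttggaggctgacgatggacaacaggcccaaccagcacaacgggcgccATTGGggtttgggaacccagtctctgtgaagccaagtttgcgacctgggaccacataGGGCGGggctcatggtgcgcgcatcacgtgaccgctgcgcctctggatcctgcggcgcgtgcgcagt
The Srsf6 window is the richest in G and C, at 67.6%, against 45.2% for Lsm2, 46.8% for Snrpf and 55.6% for Prpf39. Lsm2 holds 1 CCAAT and 1 GGGCGG, Snrpf 1 CCAAT and no GGGCGG, Srsf6 no CCAAT and 2 GGGCGG, and Prpf39 2 CCAAT and 1 GGGCGG. With 4 genes chosen for their values, these counts are a description only.

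A start was listed for 57 of the 64 members, and 13 motifs, chosen with results known, were searched on both strands of the 250 bases. CCAAT, the box bound by NF-Y, was present in 36.8% of members, 36.3% of tested genes and 34.3% of all genes with a listed start. GGGCGG, the GC box, was present in 50.9% of members, 58.8% of tested genes and 32.4% of all genes. CCGGAAGT, of the kind bound by ETS factors, was present in 12.3% of members, 7.55% of tested genes and 3.29% of all genes. The palindrome bound by NRF1 was present in 5.26% of members and 1.87% of tested genes. CACGTG, the E-box, was present in 5.26% of members and 8.38% of tested genes. TATAAA was present in 5.26% and 6.42%, TGACGTCA in 5.26% and 3.08%, TGACGCA in 5.26% and 3.43%, TGACGTAA in 3.51% and 1.07%, and TTTCGCGC in 1.75% and 0.548% of members and of tested genes. TTTGGCGC, the YY1 motif and the NF-kappaB site were in none of the 57 windows, and in 0.756%, 0.811% and 0.153% of tested genes. TGACGCA is not part of TGACGTCA or TGACGTAA, and no other motif of the set contains another. A match describes letters in the window only.

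With LPS, 34 of the 60 members tested were lower than in Control and 1 was higher, by limma on log2(FPKM + 1) with a Benjamini-Hochberg adjusted p under 0.05 over all 11141 tested genes. Of all tested genes 28.7% were lower and 12.3% higher, so the members' share of lower calls (56.7%) was above the background and their share of higher calls (1.67%) below it. By at least 2-fold, 18 members were lower and none higher, beside 12.6% and 4.92% of all genes. The 3 LPS libraries all lay below the 3 Control libraries for 43 members and above them for 3, beside 37.6% and 17.5% of all genes. The median difference was -0.61 on the log2 scale for members and -0.19 for all tested genes. Median-of-ratios scaling moved the median of all genes by 0.18 and turned the split of all genes from 28.7% lower and 12.3% higher to 20.9% lower and 17% higher, yet left the members' median 0.40 below that of all genes, beside 0.42 without it. Under that scaling 29 members were lower and 1 higher. With the replicate number as a block, 37 members were lower and 2 higher, beside 35.5% and 17.2% of all genes. The 4 members not tested were Snrpd2l, Snrpep2, Snrpn and Srsf12, which did not reach 1 FPKM in 3 libraries.

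With LPS+EVs, 40 of the 60 tested members were lower than in Control and 1 was higher, by the same limma test, beside 30.8% lower and 13.5% higher of all tested genes. By at least 2-fold 19 were lower and none higher, beside 13.8% and 5.28% of all genes. The LPS+EVs libraries all lay below the Control libraries for 44 members and above them for 4, beside 40.6% and 19.6% of all genes. Under median-of-ratios scaling, which moved the median of all genes by 0.19, the members gave 27 lower and 1 higher, beside 22.5% lower and 18.6% higher of all genes. With the replicate number as a block 40 members were lower and 2 higher, beside 37.4% and 17.8% of all genes. Both comparisons share the Control libraries, so their values are given side by side. The same 34 members were lower in both. By limma-voom on the recovered reads 27 members were lower and 2 higher with LPS+EVs, beside 21.8% and 20.2% of all genes, and 28 were lower and 2 higher with LPS, beside 20.6% and 18.8%.

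**Figure D2:**
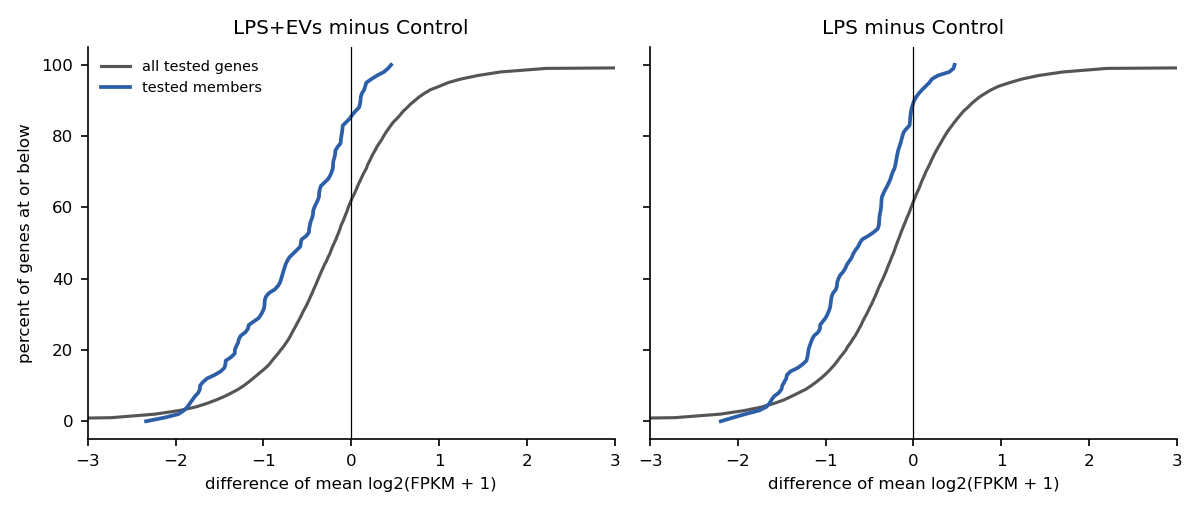
Cumulative percent of genes (vertical axis) at or below each difference of mean log2(FPKM + 1) (horizontal axis) for LPS+EVs minus Control (left) and LPS minus Control (right), with the 60 tested members in blue and all 11141 tested genes in gray. The member curve lies left of the curve of all genes over most of its length, with medians of -0.57 and -0.61 for members, against -0.19 in both panels for all genes.

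Cell division genes moved with these differences. All 18 genes of a cell division list (Mki67, Top2a, Ccna2 and others) were lower in both comparisons with Control, and their summed level was 76.4 to 90.2 FPKM in LPS+EVs, 80.3 to 128 FPKM in LPS and 738 to 836 FPKM in Control. Neutrophil markers summed to 4.68 to 18.9 FPKM in LPS+EVs, 2.31 to 7.63 FPKM in LPS and 32.3 to 272 FPKM in Control, with 3 of 5 tested markers lower with LPS and 2 of 5 with LPS+EVs. With the replicate number as a block, 5 of 5 were lower with LPS and 3 of 5 with LPS+EVs. Among the neutrophil markers the granule genes Mpo, Elane and Prtn3 stayed below 1 FPKM in every library. Macrophage and monocyte markers summed to 4217 to 6881 FPKM in LPS+EVs, 3674 to 7107 FPKM in LPS and 7017 to 8908 FPKM in Control, with 8 of 14 lower and 2 higher with LPS. Erythroid and megakaryocyte markers summed to 617 to 1453 FPKM in LPS+EVs, 609 to 1940 FPKM in LPS and 540 to 1508 FPKM in Control. Of the 6 tested, 3 were higher and 2 lower in each comparison with Control. Of 10 stromal markers 1 was higher and none lower in each. With the block, 4 of the 6 erythroid and megakaryocyte markers were higher in each, and 1 stromal marker was lower with LPS and 2 with LPS+EVs. Of 13 dendritic cell markers 2 were lower in each and 1 higher with LPS, and with the block 7 were lower with LPS and 6 with LPS+EVs. The 2 tested T, B and NK cell markers were lower in each. Of all tested genes 28.7% were lower and 12.3% higher with LPS, and 30.8% and 13.5% with LPS+EVs. The part of any of these lists in the members' differences was not tested.

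In the Sm ring all 8 tested genes fell with LPS and with LPS+EVs, beside 28.7% and 30.8% of all tested genes. Under median-of-ratios scaling 7 of the 8 were lower with LPS, all but Snrpel1, and 6 with LPS+EVs, all but Snrpel1 and Snrpg. Snrpf (SmF) had 12.9, 10.9 and 16 FPKM in LPS+EVs, 14.2, 11.8 and 14.1 FPKM in LPS, and 52.8, 42.5 and 42.1 FPKM in Control. It fell by 1.70 on the log2 scale with LPS (SE 0.16, limma adjusted p = 0.000114) and by 1.72 with LPS+EVs (SE 0.16, limma adjusted p = 0.000109), the largest fall of the ring with LPS. The 6 treated libraries lie close together, far below the nearest Control library. Snrpd1 (SmD1) had 13, 10.4 and 13.6 FPKM in LPS+EVs, 15.8, 13 and 15 FPKM in LPS, and 49.7, 36.2 and 43.6 FPKM in Control. It fell by 1.49 with LPS (SE 0.16, limma adjusted p = 0.000187) and by 1.73 with LPS+EVs (SE 0.16, limma adjusted p = 8.64e-05), again without overlap with Control. Snrpd2 (SmD2), the member with the highest mean level of all, had 96.5, 95.4 and 102 FPKM in LPS+EVs, 95.8, 83.7 and 65.9 FPKM in LPS, and 195, 180.4 and 139.8 FPKM in Control. It fell by 1.06 with LPS (SE 0.17, limma adjusted p = 0.00146) and by 0.79 with LPS+EVs (SE 0.17, limma adjusted p = 0.00564). The LPS+EVs values of Snrpd2 lie close together, whereas the LPS and Control values spread more widely without meeting.

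Among the other ring genes, Snrpb (SmB), Snrpd3, Snrpe and Snrpg fell, with log2 differences of -1.29, -1.22, -0.87 and -0.85 with LPS and of -1.51, -1.29, -0.85 and -0.57 with LPS+EVs (limma adjusted p of 0.00688 or less for each). The Snrpg call with LPS+EVs was lost with median-of-ratios scaling (-0.35, adjusted p = 0.0969) and with limma-voom (-0.34, 0.0929). The Sm proteins enter the ring in equal numbers, but their transcripts do not stand at equal levels: per length, Snrpd2, Snrpg and Snrpe led in every group, and Snrpd1 and Snrpf stood lowest of the 7 in the treated groups. Snrpel1, a copy of Snrpe at 0.753 to 3.35 FPKM, fell by 0.76 with LPS (SE 0.23, limma adjusted p = 0.0293) and by 0.64 with LPS+EVs (SE 0.23, limma adjusted p = 0.0492), with 13 to 59 reads per library. Reads of Snrpe and its copies Snrpel1 and Snrpep2, and of Snrpd2 and Snrpd2l, may have been split between near-identical genes, so the values of these copies are uncertain. The Snrpel1 call with LPS was lost without LPS replicate 1 (adjusted p = 0.092), LPS replicate 3 (0.0691), Control replicate 1 (0.107) or Control replicate 3 (0.0945), and that with LPS+EVs whichever of the 6 libraries was left out (0.0527 to 0.156). Under median-of-ratios scaling the adjusted p was 0.103 with LPS and 0.166 with LPS+EVs. Snrpd2l stood at 0.119 to 1.85 FPKM, Snrpep2 was listed at 0 in all libraries but Control replicate 1 (0.210 FPKM), and Snrpn, the SmN gene known from brain, at 0 in all but LPS+EVs replicate 3 (0.0215 FPKM).

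**Figure D3:**
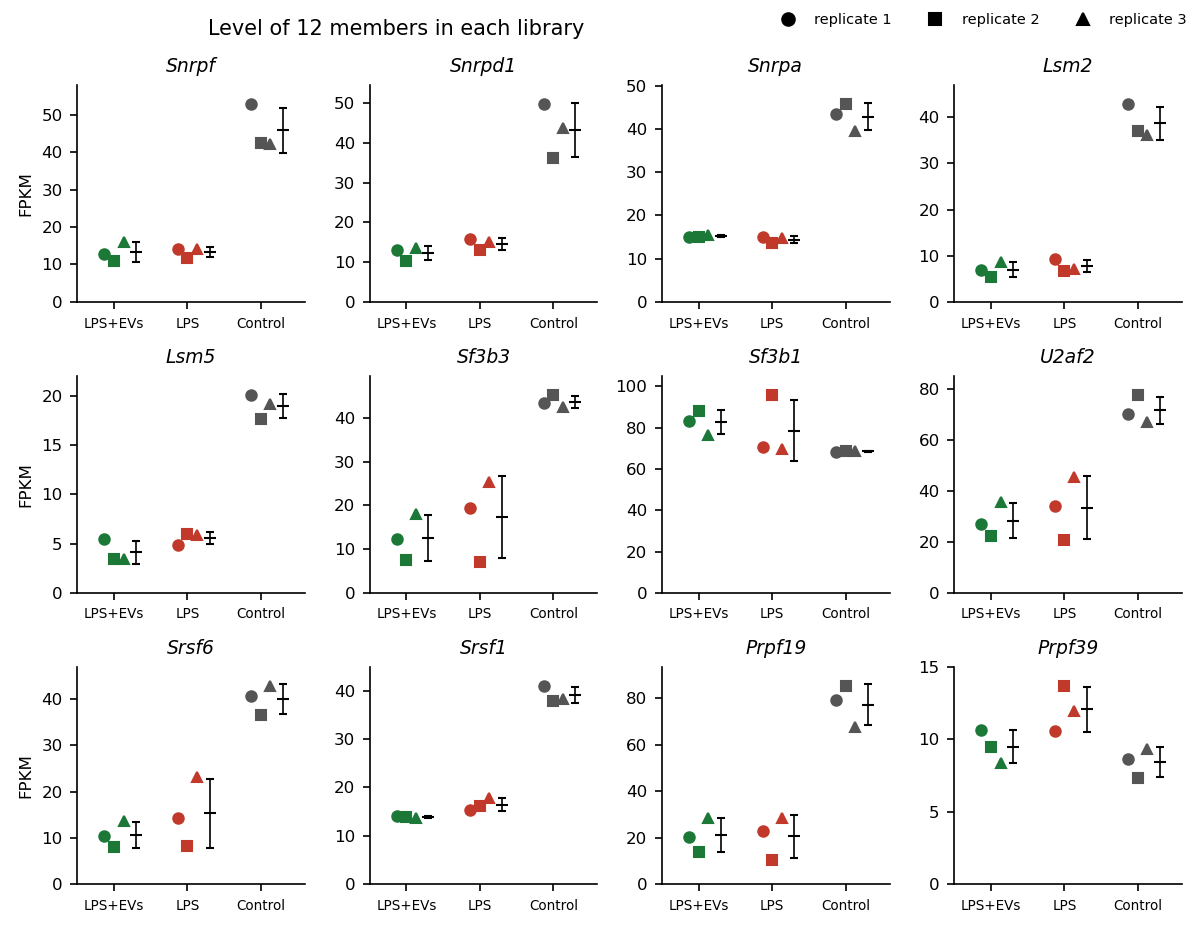
FPKM (vertical axes, linear from 0) of 12 members in each library of LPS+EVs, LPS and Control, with 1 symbol per library shaped by replicate number and the mean ± SD of each group (n = 3) as a black bar to its right. Sf3b3, U2af2, Srsf6 and Prpf19 spread widely within LPS, with replicate 2 lowest, whereas Snrpa and Srsf1 stay close together within each treated group.

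All 4 proteins particular to U1 or U2 fell as well, beside 28.7% of all tested genes with LPS and 30.8% with LPS+EVs. Under median-of-ratios scaling 2 of the 4, Snrpa and Snrpa1, were lower in each comparison. Snrpa, the U1 protein that binds a stem-loop of U1 RNA, had 15.1, 15 and 15.6 FPKM in LPS+EVs, 14.9, 13.6 and 14.7 FPKM in LPS, and 43.3, 45.7 and 39.5 FPKM in Control. It fell by 1.51 with LPS (SE 0.10, limma adjusted p = 1.7e-05) and by 1.43 with LPS+EVs (SE 0.10, limma adjusted p = 2.3e-05), and the treated libraries span only 13.6 to 15.6 FPKM. Snrpc, which steadies the pairing of U1 with the 5′ splice site, had 32, 27.1 and 26.7 FPKM in LPS+EVs, 31.4, 30.2 and 26.7 FPKM in LPS, and 40.2, 40 and 36.8 FPKM in Control. Its fall was the smallest of the 4, at 0.40 with LPS (SE 0.11, limma adjusted p = 0.0239) and 0.44 with LPS+EVs (SE 0.11, limma adjusted p = 0.0147), though no treated library reached a Control library. The Snrpc call with LPS was lost without LPS replicate 3 (adjusted p = 0.0659), Control replicate 1 (0.0851) or Control replicate 2 (0.0713), with libraries 1 and 3 alone (0.064), with median-of-ratios scaling (-0.19, 0.350) and with limma-voom (-0.18, 0.338). With LPS+EVs it was lost without LPS+EVs replicate 2 (0.052) or Control replicate 1 (0.0575), with libraries 1 and 3 alone (0.0672), with median-of-ratios scaling (-0.22, 0.269) and with limma-voom (-0.20, 0.285). Snrpa1 and Snrpb2, the U2 proteins A′ and B″, fell by 0.95 and 0.63 with LPS and by 0.81 and 0.75 with LPS+EVs (limma adjusted p of 0.010 or less). Both Snrpb2 calls were lost with median-of-ratios scaling (adjusted p = 0.13 with LPS and 0.0622 with LPS+EVs) and with limma-voom (0.097 and 0.056).

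The SF3 complex was divided. Sf3b3, Sf3a3, Sf3b4 and Sf3b2 fell in both comparisons, and the other 5 of the 9 genes passed in neither. The share lower was 44.4% in each, beside 28.7% of all tested genes with LPS and 30.8% with LPS+EVs. Under median-of-ratios scaling 4 were lower with LPS and 3 with LPS+EVs, beside 20.9% and 22.5% of all tested genes. Sf3b3, the large scaffold of SF3b, had 12.4, 7.51 and 18 FPKM in LPS+EVs, 19.4, 7.1 and 25.4 FPKM in LPS, and 43.4, 45.1 and 42.5 FPKM in Control. It fell by 1.45 with LPS (SE 0.43, limma adjusted p = 0.0258) and by 1.79 with LPS+EVs (SE 0.43, limma adjusted p = 0.010). Replicate 2 was the lowest of each treated group and the LPS values spread most widely. Its call with LPS was lost without Control replicate 1 (adjusted p = 0.0721), replicate 2 (0.070) or replicate 3 (0.0663). Sf3a3, Sf3b4 and Sf3b2 fell by 0.87, 0.71 and 0.60 with LPS and by 1.01, 0.71 and 0.48 with LPS+EVs (limma adjusted p of 0.00412 or less). The Sf3b2 call with LPS+EVs was lost with median-of-ratios scaling (-0.26, adjusted p = 0.106), also when joined to the replicate block (0.0521), and with limma-voom (-0.25, 0.0916).

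Sf3b1, which holds the branch site and is given here as a gene of the complex that did not pass (chosen after its values were seen), had 83, 88.3 and 76.5 FPKM in LPS+EVs, 70.5, 95.6 and 69.4 FPKM in LPS, and 68, 68.7 and 68.8 FPKM in Control. It was 0.18 above Control with LPS (SE 0.14, limma adjusted p = 0.318) and 0.26 above with LPS+EVs (SE 0.14, limma adjusted p = 0.144), and although every treated library lay above every Control library, neither difference passed. With median-of-ratios scaling joined to the replicate block, the difference with LPS+EVs was 0.49 (adjusted p = 0.024). Sf3b5, a small SF3b subunit and the highest of the family, had 86.7, 95.6 and 97.2 FPKM in LPS+EVs, 82, 84.3 and 71.1 FPKM in LPS, and 93.9, 93.7 and 87.1 FPKM in Control. It differed by -0.21 with LPS (SE 0.10, limma adjusted p = 0.137) and by 0.02 with LPS+EVs (SE 0.10, limma adjusted p = 0.867), and the LPS+EVs values overlap Control. Sf3a1, Sf3a2 and Sf3b6 differed by -0.36, -0.37 and 0.04 with LPS and by -0.27, -0.21 and -0.18 with LPS+EVs, and none passed. In the model that blocks on replicate number Sf3a1 was lower with LPS (adjusted p = 0.0282), as it was without LPS replicate 2 (0.0277). Within this complex the levels relative to Control differed: the 3 LPS libraries averaged 39.6% of the Control mean for Sf3b3 and 115% for Sf3b1.

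Of the U2AF genes, both subunits of the dimer fell. U2af2, which reads the polypyrimidine tract, had 27.2, 22.3 and 35.7 FPKM in LPS+EVs, 34, 20.7 and 45.4 FPKM in LPS, and 70.4, 77.6 and 67 FPKM in Control. It fell by 1.14 with LPS (SE 0.27, limma adjusted p = 0.0102) and by 1.33 with LPS+EVs (SE 0.27, limma adjusted p = 0.00476), with replicate 2 lowest of each treated group and highest of Control. U2af1, which reads the AG of the 3′ splice site, had 38.2, 38.5 and 51.9 FPKM in LPS+EVs, 46.2, 36.3 and 47.5 FPKM in LPS, and 84.9, 92.3 and 78.8 FPKM in Control. It fell by 0.97 with LPS (SE 0.16, limma adjusted p = 0.00176) and by 0.99 with LPS+EVs (SE 0.16, limma adjusted p = 0.00157), and every treated library lay below every Control library. U2af1l4, a paralog of U2af1, did not pass, at -0.03 with LPS and 0.11 with LPS+EVs, where the replicate block joined to median-of-ratios scaling gave 0.32 (adjusted p = 0.0446).

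**Figure D4:**
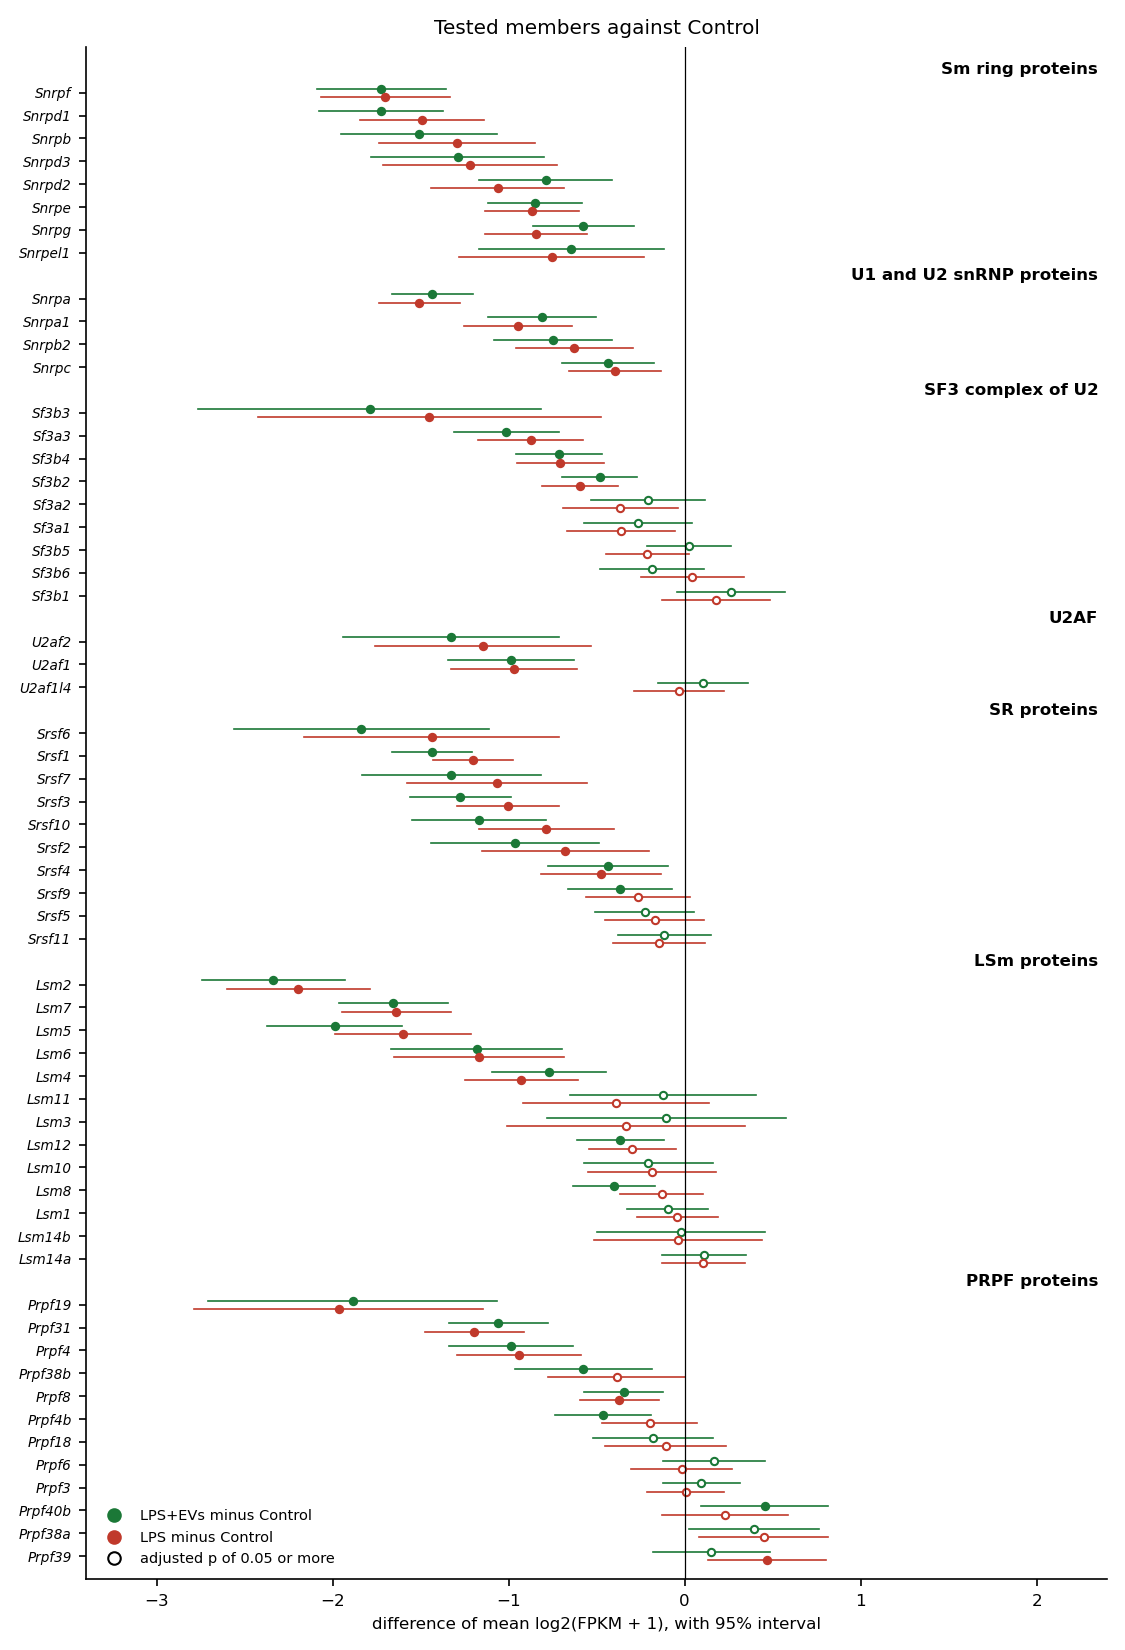
Difference of mean log2(FPKM + 1) from Control (horizontal axis) with its 95% interval for 59 of the 60 tested members, ordered by family, with LPS+EVs in green above LPS in red and open symbols where the limma adjusted p was 0.05 or more. The Sm ring and the U1 and U2 proteins lie wholly left of 0, whereas SF3, LSm and PRPF genes run from far left to around 0.

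SR proteins were lower in 7 of 10 tested genes with LPS and in 8 of 10 with LPS+EVs, beside 28.7% and 30.8% of all tested genes. None was higher. Under median-of-ratios scaling 6 were lower in each. Srsf6 had 10.5, 8.0 and 13.6 FPKM in LPS+EVs, 14.4, 8.32 and 23.2 FPKM in LPS, and 40.7, 36.5 and 42.8 FPKM in Control. It fell by 1.44 with LPS (SE 0.32, limma adjusted p = 0.00778) and by 1.84 with LPS+EVs (SE 0.32, limma adjusted p = 0.00232), the largest fall of the family in both. LPS replicate 3 lies well above the other treated libraries but still below every Control library. Srsf1, the founding SR protein, had 14, 13.8 and 13.6 FPKM in LPS+EVs, 15.3, 16.1 and 17.8 FPKM in LPS, and 40.9, 37.9 and 38.2 FPKM in Control. It fell by 1.20 with LPS (SE 0.10, limma adjusted p = 5.7e-05) and by 1.43 with LPS+EVs (SE 0.10, limma adjusted p = 2.21e-05), with little spread within any group. Srsf2 (SC35), the SR gene with the highest mean level, had 57, 36.8 and 51.4 FPKM in LPS+EVs, 65.4, 43.2 and 69.6 FPKM in LPS, and 95.8, 94.4 and 90.9 FPKM in Control. It fell by 0.68 with LPS (SE 0.21, limma adjusted p = 0.0305) and by 0.96 with LPS+EVs (SE 0.21, limma adjusted p = 0.00649), with replicate 2 lowest in both treated groups. The Srsf2 call with LPS was lost without LPS replicate 2 (adjusted p = 0.0657), Control replicate 1 (0.0882), replicate 2 (0.0779) or replicate 3 (0.0722), and with limma-voom (-0.46, 0.0554).

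Srsf7 and Srsf3 fell by 1.06 and 1.00 with LPS and by 1.33 and 1.27 with LPS+EVs, and Srsf10 by 0.78 and 1.17 (limma adjusted p of 0.00656 or less). Srsf4 fell by 0.48 with LPS (SE 0.15, limma adjusted p = 0.0327) and by 0.43 with LPS+EVs (SE 0.15, limma adjusted p = 0.0434), calls that were lost without most single libraries. With LPS these were LPS replicate 1 (adjusted p = 0.0782), 2 (0.0592) or 3 (0.0581) and Control replicate 1 (0.084) or 2 (0.111), and with libraries 1 and 3 alone it was 0.127. With LPS+EVs they were LPS+EVs replicate 1 (0.138) or 2 (0.115) and Control replicate 1 (0.0994), 2 (0.14) or 3 (0.0528), and with libraries 1 and 3 alone it was 0.192. Median-of-ratios scaling gave -0.28 with LPS (adjusted p = 0.195) and -0.22 with LPS+EVs (0.284), and limma-voom -0.29 (0.167) and -0.23 (0.26). Srsf9, Srsf5 and Srsf11 differed by -0.26, -0.17 and -0.15 with LPS, and none passed. With LPS+EVs Srsf5 and Srsf11 differed by -0.23 and -0.12 and did not pass. Srsf12 stood at 0 to 0.313 FPKM.

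LSm genes were lower in 5 of 13 with LPS (38.5%) and in 7 of 13 with LPS+EVs (53.8%), beside 28.7% and 30.8% of all tested genes. Of Lsm2 to Lsm8, which form the U6 ring, 5 of 7 fell with LPS and 6 of 7 with LPS+EVs. The 5 that fell with LPS also belong to the cytoplasmic ring named below, so these calls are not particular to the U6 ring. Of the other 6 genes none fell with LPS and Lsm12 with LPS+EVs. Lsm2 had 6.82, 5.38 and 8.62 FPKM in LPS+EVs, 9.26, 6.8 and 7.09 FPKM in LPS, and 42.8, 37.1 and 36.2 FPKM in Control. It fell by 2.19 with LPS (SE 0.18, limma adjusted p = 5.07e-05) and by 2.34 with LPS+EVs (SE 0.18, limma adjusted p = 3.52e-05), the largest fall of any member in both, with every treated library far below every Control library. Lsm7 had 14.2, 13.3 and 17 FPKM in LPS+EVs, 14.8, 13.6 and 16.6 FPKM in LPS, and 50.1, 53 and 43.1 FPKM in Control. It fell by 1.64 with LPS (SE 0.14, limma adjusted p = 5.63e-05) and by 1.66 with LPS+EVs (SE 0.14, limma adjusted p = 5.52e-05), with the treated groups overlapping each other. Lsm5 had 5.43, 3.47 and 3.4 FPKM in LPS+EVs, 4.9, 6.01 and 5.87 FPKM in LPS, and 20, 17.7 and 19.1 FPKM in Control. It fell by 1.60 with LPS (SE 0.17, limma adjusted p = 0.000206) and by 1.99 with LPS+EVs (SE 0.17, limma adjusted p = 6.65e-05), again far from Control.

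Lsm6 and Lsm4 fell by 1.17 and 0.93 with LPS and by 1.18 and 0.77 with LPS+EVs (limma adjusted p of 0.00313 or less). Lsm3, the highest of the family, had 50.1, 56.2 and 34.4 FPKM in LPS+EVs, 33.7, 64.2 and 27.3 FPKM in LPS, and 52.9, 47.1 and 48.5 FPKM in Control. It differed by -0.33 with LPS (SE 0.30, limma adjusted p = 0.397) and by -0.10 with LPS+EVs (SE 0.30, limma adjusted p = 0.801). LPS replicate 2 lies above every Control library and LPS replicates 1 and 3 below them, and without LPS replicate 2 the difference was -0.69 (adjusted p = 0.0295). With libraries 1 and 3 alone it was -0.72 (0.0256). Lsm8, which makes the ring nuclear, did not pass with LPS (-0.13, SE 0.10, limma adjusted p = 0.344) and fell by 0.40 with LPS+EVs (SE 0.10, limma adjusted p = 0.0136). The Lsm8 call with LPS+EVs was lost with median-of-ratios scaling (-0.18, adjusted p = 0.299) and with limma-voom (-0.17, 0.367). Lsm1, which replaces Lsm8 in the cytoplasmic ring of mRNA decay, differed by -0.04 with LPS and by -0.10 with LPS+EVs. Lsm10 and Lsm11 of the histone-processing U7 particle differed by -0.19 and -0.39 with LPS, and Lsm14a and Lsm14b of P-bodies by 0.11 and -0.04, and none passed. With median-of-ratios scaling joined to the block, Lsm14a was higher by 0.32 with LPS (adjusted p = 0.0429) and by 0.33 with LPS+EVs (0.0354). Lsm12 stood at -0.30 with LPS (SE 0.11, limma adjusted p = 0.0572, 0.0457 with the replicate number as a block and 0.0388 without LPS replicate 2).

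PRPF genes were the most mixed family, with 4 lower and 1 higher of 13 with LPS and 7 lower and 1 higher with LPS+EVs. The share lower was 30.8% with LPS, near the 28.7% of all tested genes, and 53.8% with LPS+EVs, beside 30.8%. The share higher was 7.69% in each, beside 12.3% and 13.5%. Under median-of-ratios scaling 3 of the 13 were lower in each comparison, beside 20.9% of all tested genes with LPS and 22.5% with LPS+EVs. Prpf19, the ubiquitin ligase that gives its name to the complex activating the spliceosome, had 20.3, 14 and 28.6 FPKM in LPS+EVs, 23, 10.3 and 28.5 FPKM in LPS, and 79.3, 85.3 and 67.6 FPKM in Control. It fell by 1.96 with LPS (SE 0.36, limma adjusted p = 0.00328) and by 1.88 with LPS+EVs (SE 0.36, limma adjusted p = 0.00368), with replicate 2 lowest of each treated group. Prpf8, the protein at the heart of the catalytic center and the highest of the family, had 43.7, 46.9 and 43.4 FPKM in LPS+EVs, 43.3, 46.3 and 42.1 FPKM in LPS, and 60.2, 58.7 and 52.3 FPKM in Control. It fell by 0.37 with LPS (SE 0.10, limma adjusted p = 0.0173) and by 0.35 with LPS+EVs (SE 0.10, limma adjusted p = 0.0211), and no treated library reached Control. The Prpf8 call with LPS was lost without LPS replicate 1 (adjusted p = 0.0532), Control replicate 1 (0.0749) or Control replicate 2 (0.0568), with median-of-ratios scaling (-0.16, 0.435) and with limma-voom (-0.15, 0.42). With LPS+EVs it was lost without LPS+EVs replicate 1 (0.062) or 3 (0.0563) and Control replicate 1 (0.0852) or 2 (0.0661), with median-of-ratios scaling (-0.12, 0.547) and with limma-voom (-0.11, 0.55). Prpf31 and Prpf4, which hold the tri-snRNP together, fell by 1.19 and 0.94 with LPS and by 1.06 and 0.99 with LPS+EVs (limma adjusted p of 0.0019 or less), whereas their partners Prpf3 and Prpf6 stood at 0.01 and -0.02 with LPS and did not pass. Prpf6 was higher by 0.39 with LPS+EVs (adjusted p = 0.0203) where the replicate block was joined to median-of-ratios scaling.

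Prpf39, a U1-associated factor, had 10.6, 9.49 and 8.36 FPKM in LPS+EVs, 10.6, 13.7 and 11.9 FPKM in LPS, and 8.67, 7.32 and 9.32 FPKM in Control. It rose by 0.47 with LPS (SE 0.15, limma adjusted p = 0.0321) and differed by 0.15 with LPS+EVs (SE 0.15, limma adjusted p = 0.429). All LPS values lie above all Control values, while LPS+EVs overlaps both groups, and the call with LPS was lost without LPS replicate 2 (adjusted p = 0.0778), LPS replicate 3 (0.0607), Control replicate 1 (0.0778) or Control replicate 2 (0.108) and with libraries 1 and 3 alone (0.166). Prpf38a, a factor of spliceosome activation, stood higher by 0.45 with LPS (SE 0.16, limma adjusted p = 0.0537, 0.0246 with the replicate number as a block) and by 0.40 with LPS+EVs (SE 0.16, limma adjusted p = 0.0764, 0.0379 with the block and 0.0389 without LPS+EVs replicate 3). By limma-voom it was higher by 0.69 with LPS (adjusted p = 0.0379) and by 0.65 with LPS+EVs (0.0436). Prpf40b had 1.61, 1.69 and 1.78 FPKM in LPS+EVs, 1.15, 1.86 and 0.988 FPKM in LPS, and 1.04, 0.933 and 0.926 FPKM in Control. It rose by 0.45 with LPS+EVs (SE 0.16, limma adjusted p = 0.0442) and differed by 0.23 with LPS (SE 0.16, limma adjusted p = 0.273), and the call was lost whichever of the 6 libraries was left out (0.0866 to 0.129). Prpf38b, Prpf4b and Prpf18 differed by -0.39, -0.20 and -0.11 with LPS, and none of them passed. Prpf38b passed with the block (0.0455) and without LPS replicate 3 (0.032).

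A further 7 members passed in LPS+EVs against Control and not with LPS, 1 higher and 6 lower. Among them were Prpf40b, which was higher, and the lower genes Prpf38b (-0.57), Prpf4b (-0.46), Lsm8 (-0.40), Lsm12 (-0.37) and Srsf9 (-0.37). Passing in 1 comparison and not in the other is no test of a difference between LPS+EVs and LPS. None of the 6 lower calls held under median-of-ratios scaling (adjusted p of 0.0508 to 0.533), and each was lost without at least 1 library. Without Control replicate 3 the losses included Prpf4b (0.0594), Prpf38b (0.0625), Lsm12 (0.0797) and Srsf9 (0.070), and without Control replicate 2 Lsm8 (0.0509), Prpf38b (0.0518), Lsm12 (0.0618) and Srsf9 (0.106). Without Control replicate 1 they were Prpf38b (0.0855), Lsm12 (0.0686) and Srsf9 (0.15). Without LPS+EVs replicate 1 they were Lsm12 (0.0671) and Srsf9 (0.149), without replicate 2 they included Prpf38b (0.0839), and without replicate 3 Lsm12 (0.0751) and Srsf9 (0.103).

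Between LPS+EVs and LPS no member passed, and no gene of the 11141 passed, by limma or by limma-voom on the recovered reads (0% called). Unadjusted p-values under 0.05 were found for 4 of the 60 members and for 295 of all genes, which is 2.65%, and the adjusted p was 0.999 for each member. Member differences ran from -0.40 to 0.27 with a median of -0.02, beside -0.01 for all genes. The LPS+EVs libraries all lay above the LPS libraries for Snrpa, Sf3b2, Sf3b5 and Snrpg and all below for Lsm8, Prpf4b and Srsf1, which is 4 and 3 of 60 members, beside 3.14% and 3.48% of all genes. By the model without the replicate block, the 95% interval ran from -0.56 to 0.02 for Srsf3 and from -0.55 to 0.26 for Lsm2. For Sf3b3, with its wide spread, it ran from -1.31 to 0.64. Intervals of the model with the block, in which no gene passed either, are not given here.

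In the model without the replicate block, the members with the smallest unadjusted p were as follows. Lsm8 had 20.6, 21.8 and 21.4 FPKM in LPS+EVs and 28.4, 25 and 24.5 FPKM in LPS. Its log2 difference was -0.27 (limma adjusted p = 0.999, 0.0279 before adjustment). Srsf1, whose values are above, differed by -0.23 (unadjusted p = 0.0471), and Lsm5 by -0.39 (0.0484). In both Lsm8 and Srsf1 the groups do not overlap, and in Lsm5 LPS+EVs replicate 1 lies among the LPS libraries. Srsf10 had 3.82, 2.66 and 3.33 FPKM in LPS+EVs and 4.51, 3.64 and 5.63 FPKM in LPS. Its log2 difference was -0.38 (limma adjusted p = 0.999, 0.0496 before adjustment), with LPS+EVs replicate 1 above LPS replicate 2. Sf3b5, higher in LPS+EVs, differed by 0.24 (unadjusted p = 0.0516). Prpf4b, a kinase acting on the tri-snRNP, had 8.23, 8.12 and 7.64 FPKM in LPS+EVs and 8.89, 10.5 and 10.1 FPKM in LPS. Its log2 difference was -0.27 (limma adjusted p = 0.999, 0.0535 before adjustment), and its groups do not overlap.

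By family, SR genes stood lowest in LPS+EVs against LPS, with a median difference of -0.25 over 10 genes and 8 of them below 0, and the summed level of the family was 213 to 228 FPKM in LPS+EVs and 225 to 279 FPKM in LPS. Without LPS replicate 3, the highest of its group, the SR median was -0.10. The other families had medians between -0.05 (PRPF) and 0.09 (SF3). No test was made of these medians.

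**Figure D5:**
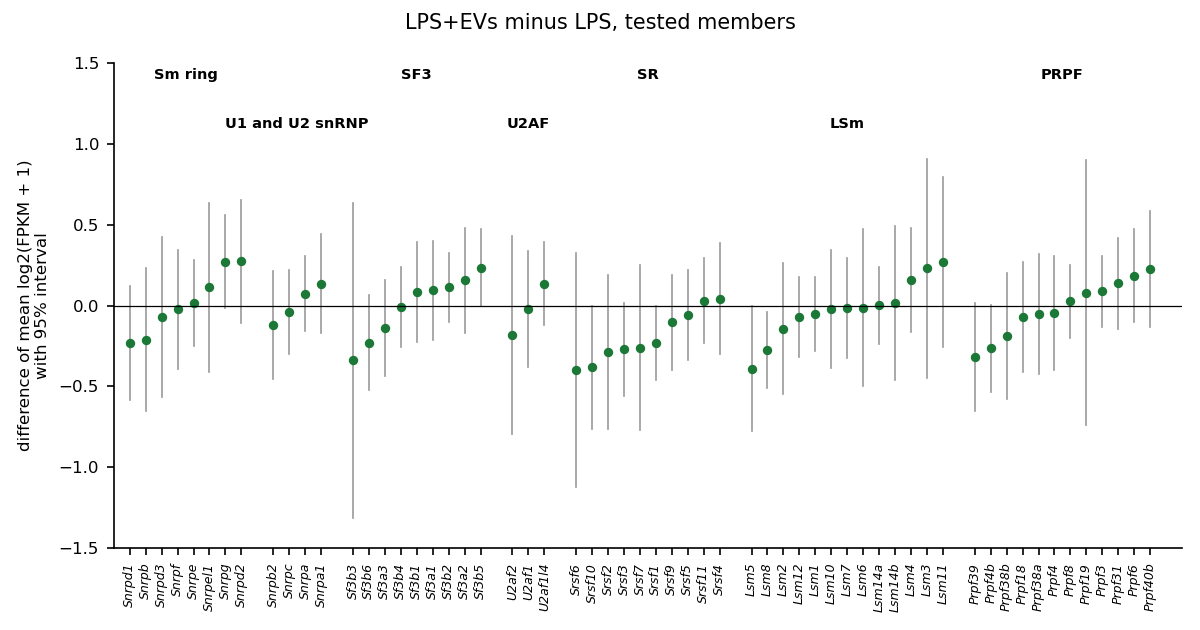
LPS+EVs minus LPS, as the difference of mean log2(FPKM + 1) (vertical axis) with its 95% interval, for 59 of the 60 tested members, ordered by family and by size within it. Points run from -0.40 to 0.27, most intervals include 0, and none passed the limma test after adjustment.

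Calls were also counted by gene length, with no test of the differences between classes. With LPS 8 of 13 members under 1 kb, 16 of 24 of 1 to 3 kb and 10 of 23 of 3 kb or more were lower, beside 39.0%, 31.4% and 24.9% of all tested genes in the same classes. Over the 60 members the difference with LPS had a Spearman correlation of 0.27 with gene length and of -0.40 with the Control level, beside 0.11 and -0.21 over all genes. The Control level also enters the difference itself, with the opposite sign, so a negative correlation with it is partly built in. Genes of a library share its depth and normalization, and the part of length in the differences was not tested.

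Genes that work with the members moved the same way in part. Lists of 124 tested partner genes gave 61 lower and 5 higher with LPS and 65 lower and 6 higher with LPS+EVs, with medians of -0.43 and -0.48, and none passed between LPS+EVs and LPS. Of all tested genes 28.7% were lower and 12.3% higher with LPS and 30.8% lower and 13.5% higher with LPS+EVs, with medians of -0.19, while partner genes were lower in 49.2% with LPS and in 52.4% with LPS+EVs. Under median-of-ratios scaling 50 partner genes were lower and 8 higher with LPS, beside 20.9% and 17% of all tested genes. With LPS+EVs that scaling gave 53 lower and 8 higher, beside 22.5% and 18.6%. With the replicate number as a block 65 were lower and 6 higher with LPS, and 67 and 9 with LPS+EVs. Of snRNP assembly genes, a list that includes those loading the Sm ring onto RNA but also others such as Phax, Tgs1, Snupn and Coil, 10 of 15 were lower with LPS. Among the lower ones were Smn1 at 16.9 ± 3.08 FPKM in LPS+EVs, 17.7 ± 3.9 in LPS and 33.8 ± 1.23 in Control (SD, n = 3 each) and Gemin4 at 1.7 ± 0.468 FPKM in LPS+EVs, 2.9 ± 1.96 in LPS and 10.1 ± 1.42 in Control (SD, n = 3 each). Of export and exon junction genes 8 of 10 were lower, among them Nxt1 at 8.57 ± 1.32 FPKM in LPS+EVs, 12 ± 2.63 in LPS and 42.2 ± 1.42 in Control (SD, n = 3 each) and Alyref at 34.1 ± 1.12 FPKM in LPS+EVs, 37.3 ± 5.17 in LPS and 82.9 ± 8.85 in Control (SD, n = 3 each). Of hnRNP genes 20 of 29 were lower, among them Hnrnpa1 at 93.1 ± 1.04 FPKM in LPS+EVs, 87 ± 6.66 in LPS and 229 ± 6.87 in Control (SD, n = 3 each). Under median-of-ratios scaling 7 of 15 snRNP assembly, 7 of 10 export and exon junction and 18 of 29 hnRNP genes were lower with LPS.

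Other partner lists had smaller shares of lower calls with LPS. Of the further U1, U2 and tri-snRNP genes 11 of 22 were lower with LPS, among them Ppih at 5.33 ± 1.06 FPKM in LPS+EVs, 5.43 ± 0.54 in LPS and 15.7 ± 2.29 in Control (SD, n = 3 each). Under median-of-ratios scaling 8 of the 22 were lower with LPS. Of Prp19 complex and catalytic genes 7 of 24 were lower with LPS (29.2%, beside 28.7% of all tested genes) and 2 higher (8.33%, beside 12.3%), with Cwc25 among those higher at 16 ± 2.08 FPKM in LPS+EVs, 16.2 ± 2.86 in LPS and 8.7 ± 0.451 in Control (SD, n = 3 each). Of SR kinases and SR-like factors 5 of 15 were lower with LPS (33.3%) and 2 higher (13.3%), beside 28.7% and 12.3% of all tested genes. The kinases did not move together. Srpk1, which phosphorylates SR proteins, was lower, at 7.68 ± 2.48 FPKM in LPS+EVs, 8.88 ± 4.78 in LPS and 22.7 ± 1.6 in Control (SD, n = 3 each). The 2 higher genes were the kinases Clk1, at a difference of 0.93 (limma adjusted p = 0.035), and Clk4, at 0.77 (0.0306). Srpk2, Clk2 and Clk3 did not pass with LPS. Of 9 minor spliceosome genes, which remove a rare class of intron, none was lower with LPS and Zrsr2 was lower with LPS+EVs, at a difference of -0.67 (limma adjusted p = 0.00671). The level of Zrsr2 was near the 1 FPKM of the filter, at 0.948 ± 0.254 FPKM in LPS+EVs, 1.54 ± 0.142 in LPS and 2.1 ± 0.303 in Control (SD, n = 3 each). Zrsr1 was higher in both, at 22.8 ± 5.65 FPKM in LPS+EVs, 17.8 ± 11.2 in LPS and 3.88 ± 0.24 in Control (SD, n = 3 each), with LPS replicate 2 highest of its group. The deposited annotation to the KEGG spliceosome pathway covers 78 tested genes that are not members. Of these, 38 were lower and 4 higher with LPS and 40 lower and 5 higher with LPS+EVs. That is 48.7% and 51.3% lower, beside 28.7% and 30.8% of all tested genes. Most of the 78 are partner genes already counted above. Without those, 25 genes remained, of which 9 were lower and 3 higher with LPS (36% and 12%). With LPS+EVs 10 were lower and 4 higher (40% and 16%). Of all tested genes 12.3% and 13.5% were higher. The medians of the 25 were -0.22 and -0.23, beside -0.19 for all tested genes.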

How the data were processed

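Each of the 9 cultures gave 1 total RNA library, and groups and replicate numbers come from the sample titles. The authors deposited FPKM values for 20442 genes; per the submitters' processing notes the tools were HISAT2, fastp, R 3.2.0 and HTSeq, with the build mRatBN7.2, and their settings are not given in the sources used here. Gene symbols were used as deposited. Some genes are included in the counts but are not reported by name here.

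The filter kept the 11141 genes that reached 1 FPKM in 3 or more libraries, 1 was added before log2, and limma 3.58.1 in R 4.3.3 (a trend on mean expression, 1 mean per group over all 9 libraries, 6 residual degrees of freedom) gave two-sided p-values, adjusted by Benjamini-Hochberg within each comparison over all tested genes, with a threshold of 0.05. Differences of log2(FPKM + 1) understate the change of low genes. The steps of the FPKM values gave back whole reads within 0.002 reads for 18833 of 18833 genes seen in at least 2 libraries, and at 32148519 to 39407116 reads per library 3 reads in 1 kb equal 0.0761 to 0.0933 FPKM, which covers counting error alone.

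After removal of group means, libraries of the same replicate number correlated at 0.284 to 0.863 across groups and those of different numbers at -0.745 to 0.426. These ranges overlap. Removing the mean of 3 libraries also pushes correlations of different numbers down where those of the same number lie above 0. The labels do not say that the numbers pair the cultures, so the replicate block was used as an alternative. For single members, a value with the block stands beside a result where it changes the call. Counts of member families, of single partner lists and of the pathway genes are given without the block, and some of them change with it.

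Members given by library are, per comparison, the largest change that passed in each family, the 6 largest in each direction, the 6 smallest p-values between LPS+EVs and LPS, and the highest mean level per family. The members, gene lists, motifs and tests were chosen with earlier results of these data known. Upstream sequences are from RefSeq (GRCr8), used for sequence only and never for the positions of the deposited values. Tables were read with pandas 2.3.3 and numpy 2.4.6 under Python 3.11.15, and plots drawn with matplotlib 3.10.9. Alternatives were no filter, 0.1 added in place of 1, median-of-ratios scaling, only the 6 libraries compared, the replicate block, limma-voom, libraries numbered 1 and 3 alone, and leaving out each library in turn.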

Additional observations from a re-analysis of the deposited data

How the results depend on the processing

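Of the 34 members lower with LPS, 27 passed under all 14 alternatives, and of the 40 lower with LPS+EVs, 27 did. Both calls of a higher member, Prpf39 and Prpf40b, were lost under some alternatives. With LPS the number of members higher was 1, and it was 0 with only the 6 libraries compared, 2 with the replicate block, 3 when that block was joined to median-of-ratios scaling, 2 with limma-voom on recovered reads and 0 with libraries numbered 1 and 3 alone, and it ranged from 0 to 1 when each library was left out. With LPS+EVs the number higher was 1, and it was 0 with no filter, 2 with only the 6 libraries, 2 with the replicate block, 6 when that block was joined to median-of-ratios scaling, 2 with limma-voom and 0 with libraries 1 and 3 alone, and it ranged from 0 to 1 when each library was left out. When each library was left out, members lower ranged from 28 to 35 with LPS and from 33 to 36 with LPS+EVs. No alternative called a member between LPS+EVs and LPS. The causes of these changes were not tested. With 3 cultures a group, the intervals of single members limit what can be seen between LPS+EVs and LPS. Depth limits the genes with few reads, among them short genes of low level such as Snrpel1.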
